A study of Mus musculus with 9 samples.

Results

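Mouse Mir532 belongs to a small cluster of microRNA (miRNA) hairpins on the X chromosome, inside the gene Clcn5. The cluster was followed in epididymosomes, the extracellular vesicles of the epididymal lumen. Its members were taken by name, as all miRNAs of the table numbered miR-188, miR-362, miR-500, miR-501, miR-532 or miR-660, whatever their arm. This gave 5 of the 358 miRNAs measured, namely miR-532-5p, miR-532-3p, miR-362-3p, miR-501-3p and miR-500-3p. No miRNA of the table was named miR-188 or miR-660, so those are not analysed here.

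The epididymosomes came from male Swiss mice aged 8 weeks and were purified on a density gradient from fluid of the caput, corpus and cauda, the proximal, middle and distal segments of the epididymis. All groups were untreated animals of the same strain, sex and age, and the vasculature was perfused before dissection to limit blood. Each segment had 3 small RNA libraries, and each library was made from the pooled RNA of several animals. A difference between segments is therefore one between pools, and the values do not show how single animals varied. Because vesicles of different cells are mixed in each library, fewer vesicles of a kind and less of a miRNA per vesicle cannot be told apart.

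A miRNA is cut from a hairpin, whose 5p and 3p arms can each yield a mature strand of about the same length. The strand loaded into an Argonaute protein pairs with messenger RNAs mainly through its seed, bases 2 to 8, and lowers their translation or stability. Clcn5, the host gene, encodes a chloride-proton exchanger of endosomes that is best known from endocytosis in the kidney proximal tubule. Hairpins within an intron are commonly transcribed along with their host, although each hairpin and each arm can mature with its own efficiency. Epididymosomes are known to meet the sperm as these mature along the duct and to pass them proteins and small RNAs.

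In the GENCODE M21 annotation of the GRCm38 build, Clcn5 (ENSMUSG00000004317.14) lies on the minus strand at chrX:7153810-7319358. The hairpin Mir532 (ENSMUSG00000070139.1) lies at chrX:7248402-7248497, on the same strand. Going downstream in the direction of transcription, the distances from the start of Mir532 to the starts of the next hairpins were 441 bp for Mir188, 6451 bp for Mir362, 7146 bp for Mir501 and 10723 bp for Mir500. All 5 annotated hairpins fell within 1 intron of Clcn5, at chrX:7213011-7316658, and none overlapped a Clcn5 exon. Together they span 10815 bp of an intron of 103648 bp, and mature strands of 4 of the 5 hairpins were measured. Mir532 and Mir188 form one close pair and Mir362 and Mir501 another, with Mir500 last.

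**Figure D1:**
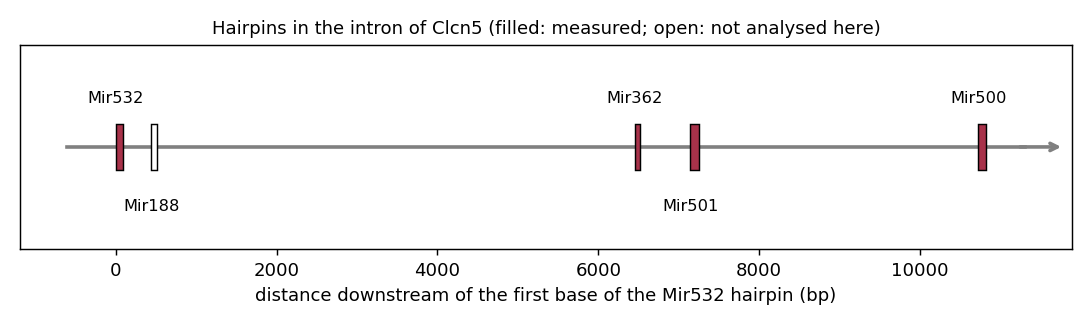
The hairpins of the Clcn5 intron are drawn by their distance in bp downstream of the start of Mir532. Filled marks are hairpins with a measured miRNA and the open mark is Mir188, which is not analysed here; the measured hairpins fall at 0, 6451, 7146 and 10723 bp.

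The mature strands show which members can share targets, and which reads could be assigned to more than 1 member. RefSeq sequences (GRCm38.p6) matched 299 of the 358 miRNAs by name, including 4 of the 5 members. They are given 5′ to 3′ with the seed in capitals:
miR-532-3p: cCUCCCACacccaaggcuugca
miR-362-3p: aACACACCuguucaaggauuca
miR-501-3p: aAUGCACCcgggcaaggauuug
miR-500-3p: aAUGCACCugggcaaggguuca
These lie on the minus strand of the X chromosome, at chrX:7248419-7248440 for miR-532-3p, chrX:7241984-7242005 for miR-362-3p, chrX:7241270-7241291 for miR-501-3p and chrX:7237695-7237716 for miR-500-3p.

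The strands miR-500-3p and miR-501-3p had the same seed and were identical at 18 of 22 bases. With positions counted from the 5′ end and the base of miR-500-3p first, they differed by U9C, G18A, C21U and A22G, none of them in the seed. The strand miR-362-3p was identical to miR-500-3p at 17 of 22 bases, but 2 of the differences, C3U and A4G with the base of miR-362-3p first, lay in the seed. It was identical to miR-501-3p at 15 bases. By contrast, miR-532-3p had 6 to 8 bases in common with the others at the same positions. The 3 strands from Mir362, Mir501 and Mir500 therefore resemble one another, and miR-532-3p does not resemble them. The number of mismatches allowed in the authors' mapping is not given in the sources used here, so reads of miR-500-3p and miR-501-3p could be divided between them with some error.

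Outside the cluster, the seed of miR-362-3p was also that of miR-329-3p, a miRNA of the Dlk1-Dio3 region, and the seed of miR-532-3p occurred in no other measured miRNA with a sequence. Levels are given in CPM, a library's reads of a miRNA divided by all its reads on miRNAs and brought to a common total. Libraries held from 1548581 to 11306605 such reads, with the caput the most deeply sequenced (8274421 to 11306605) and the corpus and cauda at 1548581 to 6190324. The floor of 3 reads lay between 0.265 and 1.94 CPM. Each member was above it in every library, with between 12 and 1456 reads.

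The most abundant member was miR-532-5p, the strand from the 5p arm of Mir532. In the caput its level was 73.9, 47.9 and 110.5 CPM in replicates 1, 2 and 3. In the corpus it was 109, 147 and 155.0 CPM, and in the cauda 164, 226 and 247 CPM. The cauda libraries were above all others, whereas the lowest corpus library lay just under the highest caput library. From caput to corpus to cauda, the means were 77.4 ± 31.5, 137.0 ± 24.8 and 212 ± 42.8 CPM (SD, n = 3 libraries each). Over the 9 libraries its mean of 142 CPM ranked 120 of 358, so it was a miRNA of middling abundance.

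The 3p arm of the same hairpin was far less abundant. In the caput miR-532-3p was at 8.76, 5.80 and 13.0 CPM, and in the corpus at 8.24, 8.62 and 10.98 CPM. In the cauda it was at 5.997, 9.16 and 22.7 CPM. The segments overlapped, with both the second lowest and the highest of the 9 values in the cauda. The means were 9.19 ± 3.63, 9.28 ± 1.49 and 12.6 ± 8.89 CPM (SD, n = 3). The cauda values rested on 12, 20 and 134 reads, for which exact 95% binomial intervals were 3.10 to 10.5, 5.59 to 14.1 and 19.0 to 26.9 CPM. The third cauda library was thus above the other two by more than counting error, which is the sole error such intervals cover.

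The member miR-362-3p differed most between the ends of the duct. The caput libraries had 9.91, 3.87 and 21.3 CPM and the corpus libraries 17.6, 17.2 and 22.6 CPM. In the cauda it was at 74.0, 45.3 and 43.8 CPM. All cauda libraries were above all caput and corpus libraries, and the caput libraries were widely spread, with 2 of them below the corpus values and 1 among them. The means were 11.7 ± 8.85, 19.2 ± 3.00 and 54.3 ± 17.0 CPM (SD, n = 3).

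The second most abundant member was miR-501-3p. Its caput libraries were at 58.4, 41.3 and 36.4 CPM and its corpus libraries at 70.1, 40.7 and 54.9 CPM. In the cauda its level was 116, 125 and 75.5 CPM. Caput and corpus overlapped, and the lowest cauda library was only slightly above the highest corpus library. The means were 45.4 ± 11.5, 55.2 ± 14.7 and 106 ± 26.6 CPM (SD, n = 3).

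The neighbour with the same seed, miR-500-3p, was at lower levels. Caput levels were 7.34, 10.03 and 19.2 CPM, and corpus levels were 14.1, 17.2 and 12.9 CPM. Cauda levels were 25.5, 33.9 and 36.5 CPM. The cauda libraries were again above all others, with caput and corpus overlapping. The means were 12.2 ± 6.20, 14.7 ± 2.24 and 31.9 ± 5.74 CPM (SD, n = 3).

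**Figure D2:**
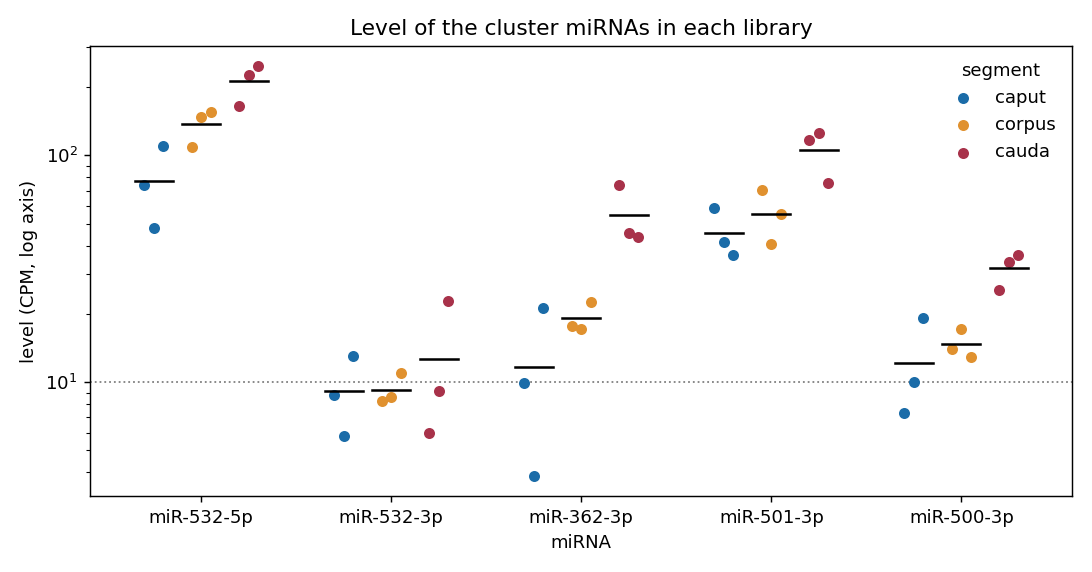
The level of each cluster miRNA is plotted on a log axis in CPM, with 1 point per library, the 3 segments side by side and a line at the mean. The cauda points of miR-532-5p, miR-362-3p, miR-501-3p and miR-500-3p lie above all caput and corpus points on this library size scale, and those of miR-532-3p run from 5.997 to 22.7 CPM across the others.

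The order of the members was nearly the same throughout. Levels were compared without a correction for length. The 4 members with a sequence are each 22 bases long, and no sequence was available for miR-532-5p. In 9 of 9 libraries miR-532-5p was the highest and miR-501-3p the second. Between the next members, miR-362-3p had more reads than miR-500-3p in 7 libraries, as many in 1 and fewer in 1, and their ranges overlapped in the caput and the corpus. The lowest member was miR-532-3p in 7 of 9 libraries.

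Summed over its 5 members, the cluster gave 158, 109 and 200.4 CPM in the caput libraries, 219, 231 and 256 CPM in those of the corpus and 386, 439 and 425 CPM in those of the cauda. The 3 segments did not overlap, with means of 156 ± 45.8, 235 ± 19.2 and 417.0 ± 27.5 CPM (SD, n = 3). With trimmed mean of M-values (TMM) scaling, which sets libraries to a common level by the bulk of miRNAs, the sums were 210.1, 228 and 172 in caput libraries, 203, 203 and 227 in corpus libraries and 357, 358 and 331 in cauda libraries, so that caput and corpus overlapped and the cauda alone stood apart. Even at its highest, the sum was 0.0439% of the reads on miRNAs. Of this sum, miR-532-5p made up an average of 48.6%, 58.0% and 50.7% from proximal to distal. The share of miR-362-3p was 6.81 ± 3.57%, 8.11 ± 0.681% and 13.3 ± 5.11% (SD, n = 3), and that of miR-532-3p was 5.78 ± 0.623%, 3.93 ± 0.309% and 2.99 ± 2.05%.

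Changes between segments were tested with limma on log2(CPM + 1), which understates changes of miRNAs with few reads. A miRNA was tested where its mean reached 10 CPM in either segment compared, and called where its adjusted p was under 0.05 and its fold change at least 2. Between caput and corpus, 4 of the 5 members were tested and 0 were called, a share to set beside the 22.4% called among all 321 miRNAs. None of these members had an unadjusted p under 0.05. The mean of miR-532-3p was under 10 CPM in both segments and it was not tested. The 2 largest changes were those of miR-362-3p, at a log2 fold change of 0.92 ± 0.52 (SE, limma adjusted p = 0.212), and miR-532-5p, at 0.88 ± 0.42 (SE, limma adjusted p = 0.136). The 95% confidence interval for miR-532-5p ran from -0.01 to 1.77, and thus held both no change and a rise past the 2-fold limit. Those of miR-500-3p and miR-501-3p were 0.35 ± 0.45 and 0.27 ± 0.42 (SE), with limma adjusted p of 0.592 and 0.657. Without the third caput library miR-362-3p and miR-532-5p were called (limma adjusted p = 0.0256 and 0.0334). In 0 of the 4 tested members were all corpus libraries above all caput libraries, against 29.3% of all miRNAs tested.

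Between corpus and cauda, 5 of 5 members were tested and 0 were called, against 19.0% of the 342 miRNAs tested. The log2 fold changes were 1.43 ± 0.52 for miR-362-3p (SE, limma adjusted p = 0.0631), 1.06 ± 0.45 for miR-500-3p (0.108), 0.93 ± 0.42 for miR-501-3p (0.134), 0.62 ± 0.42 for miR-532-5p (0.338) and 0.22 ± 0.51 for miR-532-3p (0.803). Before adjustment, 3 of these limma p were under 0.05. In 4 of 5 members, the exception being miR-532-3p, every cauda library was above every corpus library, against 30.1% of all miRNAs tested. The median change of the members was 0.93, against 0.18 for all miRNAs tested. Since the fit takes its spread from all 9 libraries, leaving out a caput library also bore on this comparison. Without the second or the third of them miR-362-3p was called (limma adjusted p = 0.0191 and 0.0218), and without the third miR-500-3p as well (limma adjusted p = 0.0409).

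Between caput and cauda, 4 of 5 members rose and 0 fell. Of the 349 miRNAs tested, 38.7% were called higher in the cauda. The log2 fold change of miR-362-3p was 2.35 ± 0.52 (SE, limma adjusted p = 0.00163), a rise of 5.08-fold with a 95% confidence interval of 1.25 to 3.44 on the log2 scale. That of miR-532-5p was 1.503 ± 0.42 (SE, limma adjusted p = 0.0082), or 2.83-fold. The related pair miR-500-3p and miR-501-3p rose by 1.41 ± 0.45 (2.65-fold, limma adjusted p = 0.0158) and 1.20 ± 0.42 (2.29-fold, limma adjusted p = 0.0259). For the remaining member, miR-532-3p, the log2 fold change was 0.29 ± 0.51 (SE, limma adjusted p = 0.658), with a 95% confidence interval of -0.79 to 1.36. This member was tested through its cauda mean alone, which fell under 10 CPM without the third cauda library. Without that library its log2 fold change was -0.21. The call of miR-500-3p was lost without the first caput library or without the second cauda library (limma adjusted p = 0.0991 and 0.0567), and that of miR-501-3p without the first or the second cauda library (limma adjusted p = 0.0837 and 0.113). In 4 of 5 members every cauda library was above every caput library, against 42.4% of all miRNAs tested.

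The table as a whole was shifted in the same direction, and the rise of the members is given against it. The median log2 fold change of all miRNAs tested between caput and cauda was 0.81, and the members' median was 1.41. Relative to the median of all, miR-362-3p was higher by 1.54, miR-532-5p by 0.69, miR-500-3p by 0.60 and miR-501-3p by 0.39, while miR-532-3p stood at -0.52. Of the changes of all miRNAs tested, 87.4% were at or under that of miR-362-3p, and the corresponding figures were 69.1% for miR-532-5p and 61.3% for miR-501-3p. With the exception of miR-362-3p, the members thus lay in the broad middle of the table.

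**Figure D3:**
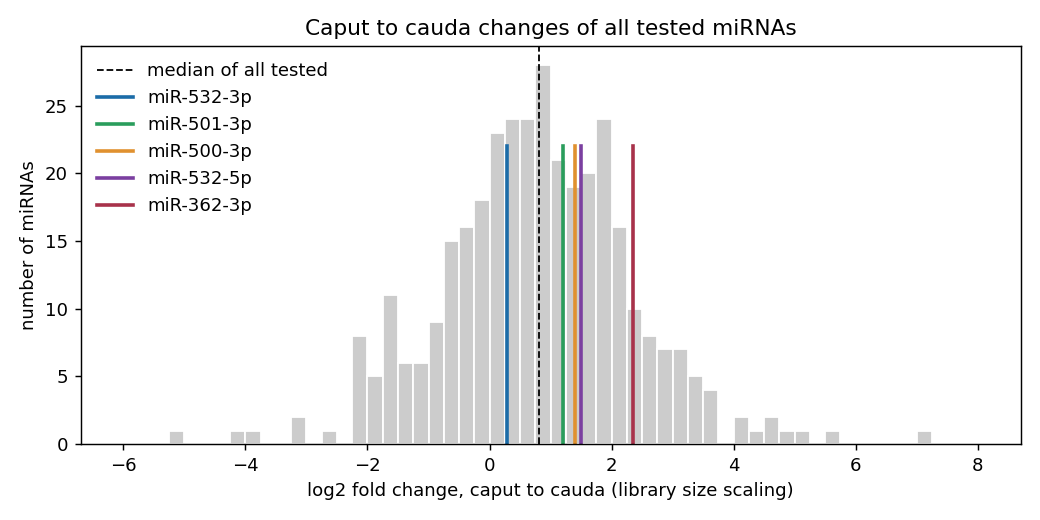
The histogram counts the miRNAs tested between caput and cauda by their log2 fold change on the library size scale, the dashed line marks their median of 0.81, and coloured lines mark the 5 cluster miRNAs. From left to right these stand at 0.29, 1.20, 1.41, 1.503 and 2.35.

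The share of a pair of very abundant miRNAs moved with this shift, and its part in the shift was not tested. Together miR-10a-5p and miR-10b-5p took 63.2%, 71.3% and 50.5% of the reads in the caput libraries, but 50.3 to 53.2% in those of the corpus and 33.2 to 34.5% in those of the cauda. TMM scaling gave factors of 0.754, 0.478 and 1.16 to the caput libraries and of 1.08 to 1.29 to the others. On that scale miR-532-5p was at 98.1, 100.2 and 94.9 in caput libraries, 101, 129 and 137 in corpus libraries and 152, 184 and 192 in cauda libraries. The caput libraries now lay close together, at 97.7 ± 2.66 (SD, n = 3), below all corpus libraries, and these below all cauda libraries.

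With TMM scaling the median change of all miRNAs between caput and cauda was 0.13, and 1 of 5 members was called higher, against 24.9% of the miRNAs tested. That member was miR-362-3p, with a log2 fold change of 1.74 (limma adjusted p = 0.00256). The rise of miR-532-5p became 0.83 (limma adjusted p = 0.0123), under the 2-fold limit. For miR-500-3p and miR-501-3p the values were 0.77 and 0.53 (limma adjusted p = 0.0663 and 0.297), and for miR-532-3p the direction turned, to -0.32 (limma adjusted p = 0.493). Between corpus and cauda, TMM scaling brought the call of miR-362-3p (log2 fold change 1.32, limma adjusted p = 0.0201), so 1 of 5 members was called higher, against 16.4% of all 342. Between caput and corpus, 0 members were called on either scale, where 13.1% of all 321 miRNAs were called higher with TMM scaling, and the changes of miR-500-3p and miR-501-3p turned to -0.19 and -0.30. The level of miR-501-3p in the third cauda library was 58.6 with TMM scaling, under 77.5 and 86.5 in 2 caput libraries and 64.9 in a corpus library. On that scale 3 of 5 members had every cauda library above every caput library, against 32.1% of all miRNAs tested, and 3 of 5 had every cauda library above every corpus library, against 27.8%. The call of miR-362-3p between caput and cauda therefore held on both scales, and those of the other 3 members did not.

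**Figure D4:**
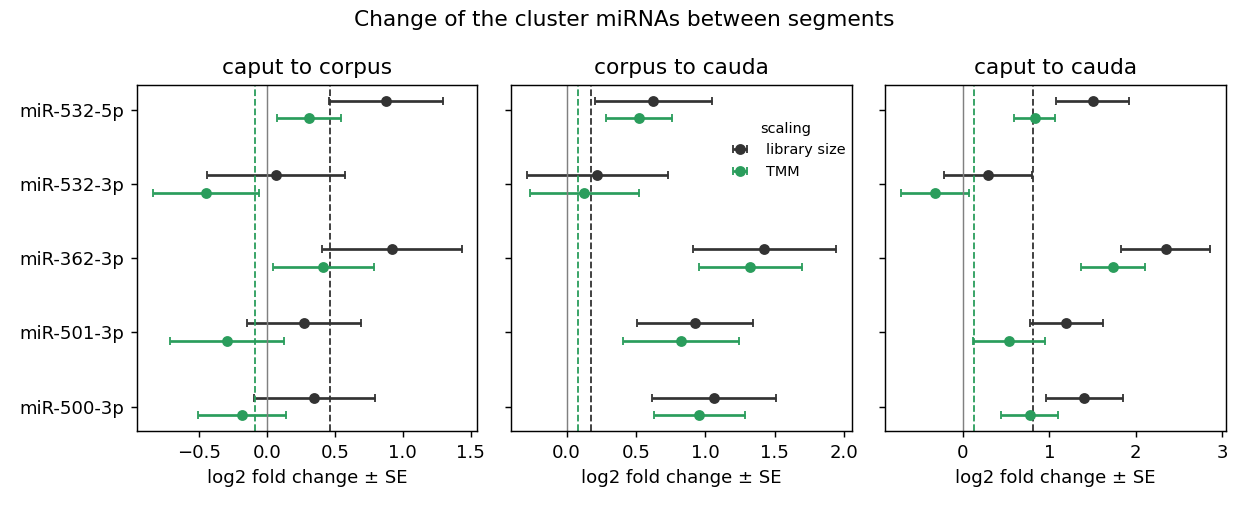
Points show the log2 fold change of each cluster miRNA in the 3 comparisons, on the library size scale (dark) and with TMM scaling (green), with bars of 1 SE; dashed lines mark the median of all miRNAs tested on each scale. Between caput and cauda, miR-362-3p stands at 2.35 and 1.74, and miR-532-3p at 0.29 and -0.32; in the panel for caput and corpus miR-532-3p was not tested and is drawn for its value.

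The ratio of 2 miRNAs within a library does not depend on how libraries are scaled. For Mir532, reads of the 5p arm outnumbered those of the 3p arm by 8.44, 8.25 and 8.49 to 1 in caput libraries, 13.2, 17.1 and 14.1 to 1 in corpus libraries and 27.4, 24.7 and 10.9 to 1 in cauda libraries. The 5p arm prevailed in each library, by the least in the caput, whose libraries were nearly equal and below all others. In the cauda, 2 libraries had the highest ratios and the third fell below the corpus, the same library in which miR-532-3p stood at 22.7 CPM. The mean log2 ratios were 3.00 ± 0.050, 3.81 ± 0.19 and 4.21 ± 0.69 (SD, n = 3).

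The arm ratio was tested over the 64 precursors whose 2 arms each averaged 10 CPM or more over the 9 libraries. Mir532 was among them through the third cauda library, since miR-532-3p averaged 10.4 CPM with it and 8.82 CPM without it. From caput to cauda the log2 arm ratio of Mir532 rose by 1.21 ± 0.37 (SE, limma adjusted p = 0.0427). Between these segments 14.1% of the precursors were called, and 52 of the 64 had a smaller change. The call rested on each of 8 libraries in turn: without any 1 of them the difference was 0.99 to 1.24 and the limma adjusted p 0.0587 to 0.168. With Mir532 kept in the test, the difference without the third cauda library was 1.61 (limma adjusted p = 0.00393). Between caput and corpus the ratio was higher by 0.81 ± 0.37 (SE, limma adjusted p = 0.349), where 1.56% of precursors were called, and between corpus and cauda by 0.40 (limma adjusted p = 0.575), where 6.25% were. Because the 3p arm had as few as 12 reads in a library, the ratio carries the counting error of that arm as well.

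The other members were likewise compared with miR-532-5p in the same library. The log2 ratio of miR-500-3p to miR-532-5p was -2.65 ± 0.54 in the caput and -2.71 ± 0.039 in the cauda (SD, n = 3), a difference of -0.06 (exact permutation test, two-sided, p = 0.9). That of miR-501-3p was -0.71 ± 0.76 and -1.02 ± 0.62, a difference of -0.30 (exact permutation test, two-sided, p = 0.5). For miR-362-3p it was -2.89 ± 0.56 in the caput and -1.98 ± 0.73 in the cauda, a difference of 0.91 (exact permutation test, two-sided, p = 0.2). The caput and cauda ranges of these 3 ratios overlapped. They did not for miR-532-3p, whose log2 ratio fell from -2.995 ± 0.050 to -4.21 ± 0.69, although p = 0.1 (exact permutation test, two-sided) is the smallest that 3 libraries against 3 allow. This last ratio is the arm ratio of Mir532 given above with its sign reversed, and so adds no separate observation. None of these 4 comparisons could thus reach 0.05 by the permutation test, before or after adjustment, and the members cannot be said to have moved alike.

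**Figure D5:**
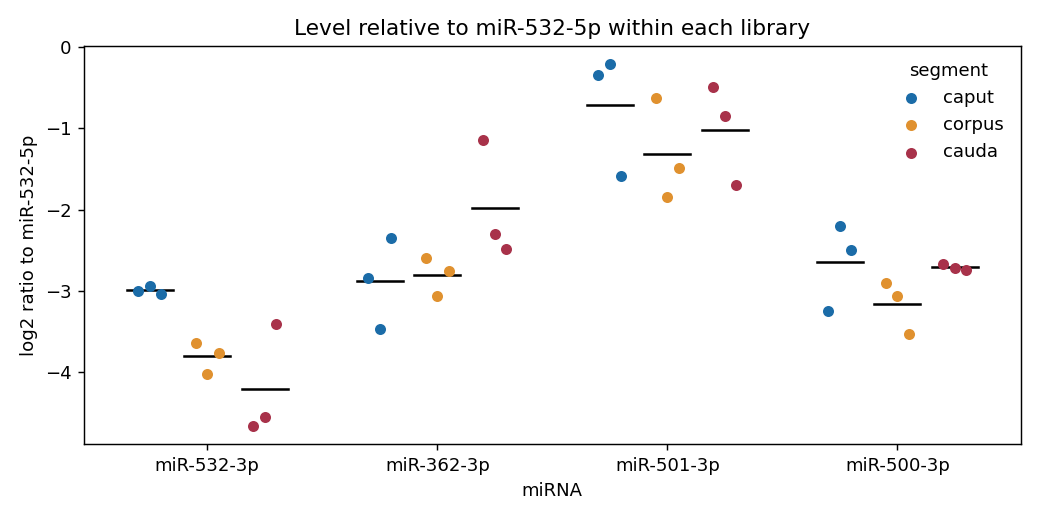
The log2 ratio of each other cluster miRNA to miR-532-5p in the same library is plotted with 1 point per library and a line at the segment mean. The points of miR-532-3p lie near -2.995 in the caput and average -4.21 in the cauda, while caput and cauda points of the other 3 overlap.

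Across the 9 libraries, the members also differed in how closely they followed miR-532-5p. Pearson's r of log2(CPM + 1) with miR-532-5p was 0.896 for miR-362-3p, 0.859 for miR-500-3p, 0.588 for miR-501-3p and 0.552 for miR-532-3p, its own partner arm. The median r of the 353 miRNAs outside the cluster was 0.651, so miR-501-3p and miR-532-3p followed it less closely than the median miRNA did. Among the 10 pairs of members r ran from -0.07, between miR-501-3p and miR-532-3p, to 0.896. The pair with the same seed, miR-500-3p and miR-501-3p, had r = 0.576. These values describe 9 libraries that fall into 3 segments and share their scaling. Counting error can lower r for a member with few reads, and its part here was not tested. Reads per library ran from 12 to 134 for miR-532-3p and from 85 to 660 for miR-501-3p.

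The 5 miRNAs of other loci that followed miR-532-5p most closely were miR-199b-3p, miR-199a-3p, miR-127-5p, miR-25-3p and miR-676-3p, with r between 0.958 and 0.969, and 34 of the 353 had r above 0.9. The first 2 of these had nearly equal means, of 1360 and 1375 CPM in the caput and 4743 and 4774 CPM in the cauda. The same reads may thus be counted in both, and they are best read as 1 observation. From proximal to distal the means of miR-199a-3p were 1375 ± 727, 3026 ± 667 and 4774 ± 997 CPM (SD, n = 3). For miR-25-3p the means were 366 ± 99.0, 723 ± 68.0 and 1186 ± 291 CPM. Close to miR-532-5p in level, miR-676-3p, also encoded on the X chromosome, had means of 58.3 ± 21.2, 102 ± 34.2 and 157 ± 17.0 CPM. The lowest of them, miR-127-5p, had means of 7.06 ± 4.48, 11.9 ± 3.80 and 22.3 ± 2.37 CPM.

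The miRNA with the seed of miR-362-3p, miR-329-3p, also had its highest mean in the cauda. Its means were 2.46, 4.01 and 13.1 CPM from proximal to distal. It reached 10 CPM in the cauda alone and was tested through that segment, so its log2 fold changes of 2.03 from caput to cauda and 1.49 from corpus to cauda are given as a description. In each segment its mean was below that of miR-362-3p.

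Other X-linked miRNAs outside the testis clusters gave a comparison by chromosome. Of the 26 miRNA names in that list 14 had a row, which gave 18 miRNAs. Between caput and cauda 17 were tested, and their median log2 fold change was 0.33. Of these 6 rose, against 38.7% of all miRNAs tested, and 1 fell. With TMM scaling 5 rose, against 24.9% of all, and 4 fell, and the median turned to -0.34. The medians of the Clcn5 cluster were 1.41 and 0.77 on these scales. Between caput and corpus 1 of 18 X-linked miRNAs rose, against 19.0% of all miRNAs tested, and between corpus and cauda 3 of 17 rose, against 14.0%. On the library size scale their summed level was 1238 to 2378 CPM in caput, 2788 to 3224 in corpus and 4531 to 5713 in cauda libraries. Like the sum of the Clcn5 cluster on that scale, it rose from segment to segment without overlap. A large part of the sum in the cauda was miR-221-3p, with means of 305, 1052 and 2516 CPM from proximal to distal. Its neighbour miR-222-3p had means of 150, 230 and 700 CPM. The miRNA that fell, miR-351-5p, went from 241 CPM in the caput to 86.1 CPM in the cauda. The summed rise is therefore not one of the listed miRNAs in general.

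Markers of cells that can shed RNA into these preparations moved along the duct as well. From caput to cauda, 5 of 5 smooth muscle miRNAs (the miR-143 and miR-145 hairpins) rose, and their summed level was 50120 to 89000 CPM in caput, 88430 to 121400 in corpus and 291700 to 354800 in cauda libraries. Of the striated muscle miRNAs 5 of 5 rose, with sums of 55.5 to 197 CPM in caput, 121 to 167 in corpus and 1412 to 4166 in cauda libraries. Of the red blood cell miRNAs 5 of 5 rose, with sums of 223 to 848, 390 to 1106 and 3030 to 4365 CPM in the same order. Among them miR-451a had means of 39.0, 197 and 196 CPM, and thus did not rise from corpus to cauda as the sum did. Between those segments 3 of the 5 were called higher. In this list miR-486a-5p and miR-486b-5p had nearly equal means, of 230.5 and 230 CPM in the caput and 1749 and 1743 CPM in the cauda. The same reads may thus be counted more than once in the number that rose and in the sum. Among the germ cell miRNAs, miR-465a-3p, miR-465b-3p and miR-465c-3p were likewise at 37.8, 37.8 and 37.6 CPM in the cauda. Of the germ cell miRNAs 23 of 23 rose, with sums of 434 to 1170, 1423 to 1583 and 2754 to 3727 CPM. Their list holds miR-34c, which the authors also found in the epithelium of the duct, higher in the caput than in the cauda. It thus does not mark germ cells alone. The means of miR-34c-5p were 550, 350 and 1469 CPM from proximal to distal. Of the leukocyte miRNAs 3 of 5 rose, with sums of 231 to 530.0, 515 to 1149 and 392 to 1601 CPM. Of the epithelial miR-200 family, which marks the cells that line the duct, 1 of 8 rose, and the sums were 21060 to 31930, 72120 to 84360 and 44690 to 61150 CPM. With TMM scaling the numbers that rose were 2 of 5 for smooth muscle, 5 of 5 for striated muscle, 3 of 5 for red blood cells, 18 of 23 for germ cells and 3 of 5 for leukocytes, while of the miR-200 family 0 rose and 1 fell. Among all miRNAs tested between caput and cauda, 38.7% were called higher on the library size scale and 24.9% with TMM scaling. No marker was at 0 in all libraries of a segment, but 2 of the striated muscle miRNAs and 1 of the red blood cell miRNAs were at or under the floor of 3 reads in all caput libraries, and likewise in the corpus. Of the miRNAs tested, 1 of 5 for smooth muscle, 4 of 5 for striated muscle, 2 of 5 for red blood cells, 13 of 23 for germ cells and 1 of 5 for leukocytes were under 10 CPM in the caput and entered through the cauda, where they were high, so these counts are a description. The sums for smooth muscle, striated muscle, red blood cells and germ cells were highest in the cauda, as the sums of the Clcn5 cluster and of the other X-linked miRNAs were. That of the miR-200 family was highest in the corpus, and the leukocyte sums of corpus and cauda overlapped. The part of these cells in the rise of the cluster was not tested.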

How the data were processed

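Epididymosome small RNA was sequenced in 9 libraries, 3 per segment, grouped by their labels. The authors screened the reads, assigned them to known mature miRNAs with miRDeep2 and scaled them to library size, so the deposited values are CPM. Their processing notes name CASAVA 1.8.2, Bowtie 1.1.1 and limma. The genome build and miRBase release are not given in the sources used here. All values were whole multiples of 1 read (tolerance 0.02 reads), which gave the library totals.

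Segments were compared with limma 3.58 in R 4.3 (lmFit, eBayes with a trend) on log2(CPM + 1) over all 9 libraries, with a two-sided test. Benjamini-Hochberg adjustment was made over all miRNAs tested in each comparison. Arm ratios were tested with limma at a pseudocount of 0.5 CPM, adjusted over precursors. They were called at an adjusted p under 0.05 and a change of the ratio of at least 2-fold. Ratios to miR-532-5p were compared with exact permutation tests in Python 3.11 (scipy 1.17), with the same pseudocount. The fits were tested on simulated data. Each p sets a difference between segments against variation between pools, not between single animals. The limma tests also share their estimate of that variation across miRNAs or precursors. Binomial intervals and the floor take in no error but that of counting.

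The members, the lists of X-linked and marker miRNAs and the tests were chosen with earlier results of these data known. All members were named, with the 5 other miRNAs of highest correlation to miR-532-5p among those at 10 CPM or more in a segment. By its seed miR-329-3p was added after its values were seen. Alternatives covered scaling by TMM and median of ratios, limma-voom, pseudocounts of 0.1 and 10 CPM (0.1 and 1 CPM for ratios), no filter and a minimum of 20 CPM, a replicate block, a fit to the 6 libraries compared, and leaving out each library.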

Additional observations from a re-analysis of the deposited data

How the results depend on the processing

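The number of members called between caput and cauda, 4, became 1 with TMM scaling and 1 with median-of-ratios size factors, in both cases miR-362-3p, and ranged from 2 to 4 on leaving out single libraries. It was 3 with a pseudocount of 10 CPM, where the log2 fold change of miR-500-3p was 0.95, and 3 with the 6 libraries compared, where miR-501-3p lost its call (limma adjusted p = 0.0619). It was 2 without the second cauda library, where miR-500-3p and miR-501-3p lost their calls. Between corpus and cauda the number, 0, became 1 with TMM scaling, with median-of-ratios size factors, with a pseudocount of 10 CPM and with the replicate block, each time miR-362-3p. It became 2, adding miR-500-3p, with the 6 libraries compared, and ranged from 0 to 2 on leaving out single libraries, with 1 without the second caput library and 2 without the third. Between caput and corpus it ranged from 0 to 2, with miR-362-3p and miR-532-5p called without the third caput library (limma adjusted p = 0.0256 and 0.0334). The cause of these changes was not tested.

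The log2 fold change between caput and corpus turned to -0.19 (TMM) and -0.13 (median of ratios) for miR-500-3p and to -0.30 and -0.24 for miR-501-3p. For miR-532-3p the change between caput and cauda turned to -0.32 and -0.36, and leaving out single libraries gave -0.21 to 0.67. Between corpus and cauda the latter range was -0.28 to 0.60. In both cases the lowest value was that without the third cauda library. The difference in arm ratio of Mir532 between caput and cauda ranged from 0.99 to 1.61. Samples of the same replicate number did not deviate together throughout (r from -0.21 to 0.41 over 9 pairs, 6 above 0.1), so the numbers were not taken as a pairing. With the replicate block miR-362-3p passed between corpus and cauda (limma adjusted p = 0.039), and the block moved no other number of called members, nor the call of the arm ratio (limma adjusted p = 0.0342).

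The planned edgeR tests on reads were not run. On the recovered reads limma-voom called 0, 0 and 4 members between caput and corpus, corpus and cauda, and caput and cauda. A minimum of 20 CPM in both arms left no value for Mir532. Depth limits miR-532-3p most, with 12 to 134 reads a library. At 10 CPM a miRNA had 15.5 to 113 reads.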
